A study of Mus musculus with 10 samples.

Results

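The 10 genes described here are Lgr5 and 9 modulators of Wnt signalling, namely Wnt5a, Sfrp1, Sfrp2, Sfrp4, Dkk2, Dkk3, Wif1, Axin2 and Tcf7l1. They were taken by symbol from the gene table of the array platform, which gave 21 probe sets among 45101 and 10 genes among the 18193 that could be named. Of the 10 genes, 4 had 1 probe set and 6 had more than 1.

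Messenger RNA was measured on 10 Affymetrix arrays of secondary, inducible mouse embryonic fibroblasts from a 129/SvJ x C57/B6 hybrid, with 2 arrays in each of 5 groups. Secondary inducible fibroblasts come from an animal that carries the reprogramming factors as transgenes already, so that doxycycline switches on Oct4, Sox2, Klf4 and Myc together (OSKM). The control cells were not induced and were starved in 0.5% serum for 96 h. The other groups received doxycycline, labelled as 2 ug/ul, in medium with 15% serum for 96 h, and were labelled by an average of 0, 1, 2, or 3 or more cell divisions. All groups share the strain and the inducible transgenes, so the control differs from every cohort in doxycycline and in serum, and it carries no label for division. The transgenes' promoter, the number of source animals and the way cells were sorted into cohorts are not stated in the labels. The labels call the arrays of control and 3+ cells biological replicates and merely number the rest, so the p-values measure the spread between these arrays, which may be technical in part.

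Control cells and those of 3 or more divisions share one style of label and a note of RMA processing, and the cohorts of 0, 1 and 2 divisions share another style without that note. A contrast across these label sets cannot be told apart from a difference between the sets. The contrast of 3 or more divisions with control and that of 2 with 0 divisions stay within a set. Deposited array medians were 31.4 to 33.95, and the number of arrays limits the precision. Of the 10 fibroblast markers, Col1a1, Col1a2, Col3a1, Fn1 and Vim read 12.3 or more (log2 intensity) on each of the 10 arrays. The other markers, Pdgfra, Pdgfrb, Thy1, Dcn and Lum, reached lower values. The lowest was Pdgfra at 7.40 in replicate 2 of 3 or more divisions, against 10.32 in replicate 2 of the control. Between 3 or more divisions and control, where 11.7% of all genes fell and 15.9% rose, 6 of 10 fibroblast markers fell and 0 rose. Of 6 epithelial markers 3 rose, Cdh1, Krt8 and Krt14, while Epcam, Krt5 and Krt18 did not pass. The summed linear intensity of the epithelial list was 3161 and 3243 in cells of 3 or more divisions, against 190 and 183 in the control, and that of the fibroblast list was 82872 and 71610 against 125703 and 126469. Of the other lists in the same comparison, 1 macrophage marker rose and 1 fell of 5, and 1 endothelial rose and 1 fell of 4. Of 4 neural markers 2 rose and 1 fell, and 0 of 4 muscle markers passed. No marker is listed at 0, and detection calls were not available. The part of these shifts in the results that follow was not tested, and in bulk RNA fewer cells of a type and less RNA per cell cannot be told apart.

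Wnt proteins are secreted ligands that bind Frizzled receptors, together with Lrp5 or Lrp6 in the canonical branch, where they stop the destruction of beta-catenin and let it activate genes with TCF and LEF factors. Secreted antagonists act before the receptor: Sfrp proteins and Wif1 bind the ligand, and Dkk proteins bind the Lrp co-receptor. Lgr receptors bind R-spondins, which protect Frizzled receptors from removal and so strengthen the signal. In fibroblasts the pathway is known for its part in growth and matrix formation.

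In cells of 3 or more divisions 4 of the 10 genes fell against the starved control, Lgr5, Dkk2, Dkk3 and Wnt5a, and 1 rose, Axin2. Across all 18193 genes 27.6% passed limma's test (adjusted p under 0.05, Benjamini-Hochberg over all genes), 11.7% lower and 15.9% higher. The median log2 change was -1.14 over the 10 genes and 0.02 over all genes. The arrays of the groups did not overlap for 8 of the 10 genes, 6 below and 2 above the control, against 63.1% of all genes, 28.6% below and 34.6% above. The members were picked with earlier results of these data known, so these shares describe the choice as well as the cells.

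**Figure D1:**
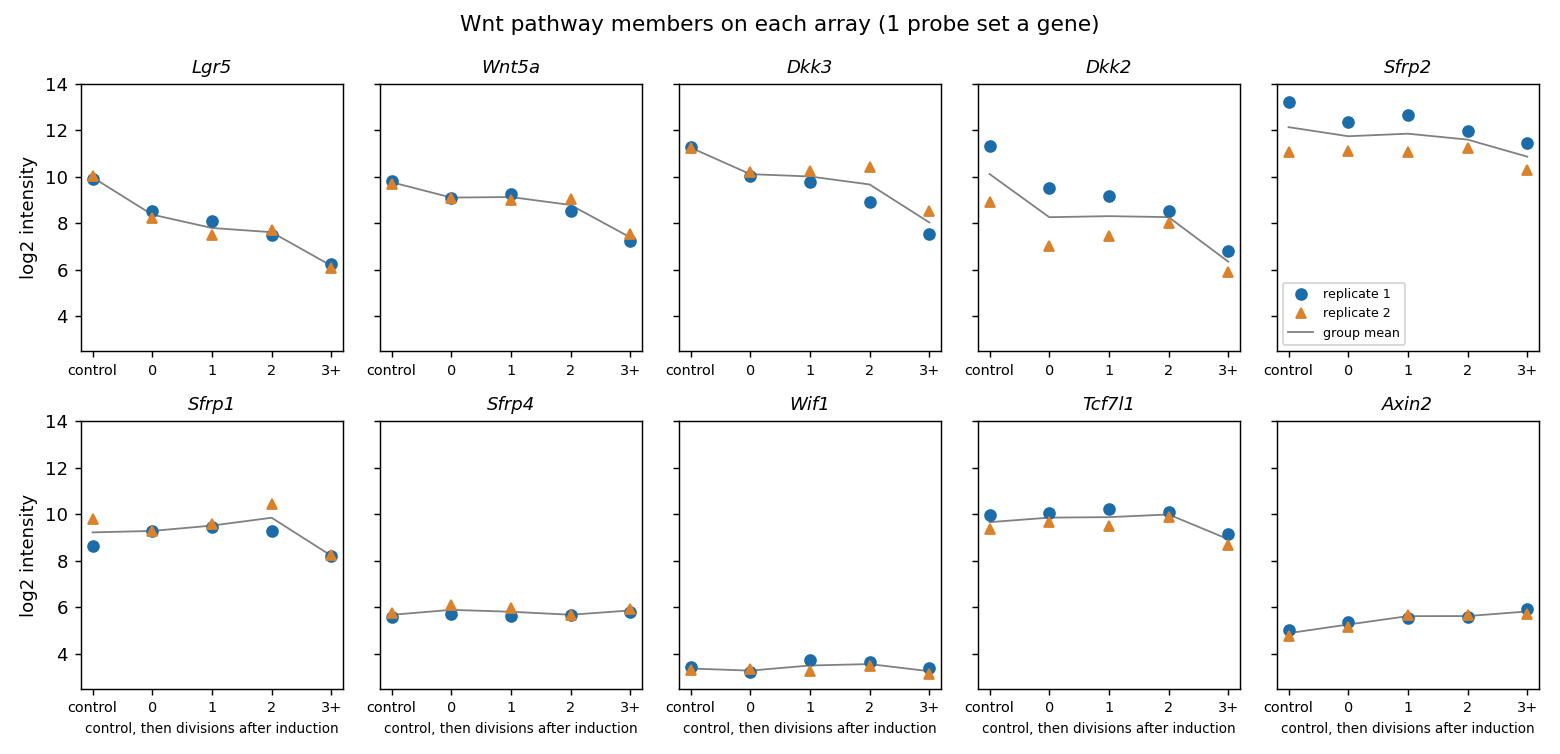
Log2 intensity (vertical axis) of the 10 genes on each array, with circles for replicate 1, triangles for replicate 2 and a grey line through the group means, for the control and the cohorts of 0, 1, 2 and 3 or more divisions (horizontal axis). Lgr5 averages 6.17 after 3 or more divisions, against 9.97 in the control, Axin2 is higher in each cohort than in the control, and the replicates of Dkk2 and Sfrp2 lie far apart.

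Lgr5, a receptor for R-spondins and a marker of stem cells in several epithelia, is the member that moved in the most comparisons. Its main probe set (1450988_at) read 9.92 and 10.02 in the control, 8.52 and 8.21 after 0 divisions, 8.08 and 7.5 after 1, 7.51 and 7.71 after 2, and 6.26 and 6.07 after 3 or more (log2 intensity, replicates 1 and 2). Every cohort lay below the control, the cohorts of 1 and 2 divisions overlapped, and the other neighbours in this order did not. The change between 3 or more divisions and control was -3.80 ± 0.21 (SE, n = 2 per group), 13.9-fold lower (limma, adjusted p = 0.000107). Over the settings that kept both arrays of these groups and did not average probe sets it ran from -3.84 to -3.77 (limma, adjusted p = 1.51e-05 to 0.00175), and averaged over its probe sets it was -1.91 (adjusted p = 0.00017).

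Lgr5 was also the member that passed after 0 divisions, where the labelled average leaves no division: it fell by 1.60 ± 0.21 on the log2 scale, 3.04-fold lower (limma, adjusted p = 0.0452). Of all genes 0.297% passed in that comparison. With the replicate number as a block the adjusted p was 0.00891, and 3.25% of all genes passed. The call was lost without any single array of these groups (limma, adjusted p = 0.0824 to 0.295), with a floor of 16 (0.0852) and with only the 4 arrays compared (0.217), while the change stayed between -1.45 and -1.76. Since control and 0 divisions belong to different label sets, this difference cannot be told apart from one between the sets.

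After 1 division Lgr5 fell by 2.18 ± 0.21 (limma, adjusted p = 0.0121; 1.24% of all genes passed), a call lost without control replicate 2 (0.0563), without replicate 2 of the cohort (0.0568) and with only the 4 arrays compared (0.186). After 2 divisions it fell by 2.36 ± 0.21 (limma, adjusted p = 0.00305; 6.12% of all genes passed), and this call held without each array of the compared groups in turn. Within the induced cells, Lgr5 fell by 2.20 ± 0.21 in cells of 3 or more divisions relative to those of 0 (limma, adjusted p = 0.00196). Between 2 and 0 divisions the difference was -0.76 (95% interval -1.23 to -0.28) and did not pass (limma, adjusted p = 0.372; 0.115 with the replicate block). The second probe set of Lgr5 (1444519_at) read between 4.01 and 4.64 on all arrays, and its change between 3 or more divisions and control was -0.03 (limma, adjusted p over all probe sets = 0.925), so the description of Lgr5 rests on 1 of its 2 probe sets.

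Wnt5a, the ligand among the members and an activator mainly of branches without beta-catenin, was lowest after 3 or more divisions. It read 9.83 and 9.69 in the control, 9.10 and 9.10 after 0 divisions, 9.26 and 8.98 after 1, 8.54 and 9.03 after 2, and 7.23 and 7.55 after 3 or more. Every cohort lay below the control, the cohorts of 0, 1 and 2 divisions ran close together, with 0 and 1 and also 1 and 2 overlapping, and the cohort of 3 or more lay below all others. Between 3 or more divisions and control it fell by 2.38 ± 0.19 (SE), 5.19-fold lower (limma, adjusted p = 0.000276). All 4 probe sets of Wnt5a passed in this comparison, with changes from -2.72 to -0.60 (limma, adjusted p over all probe sets = 0.000217 to 0.042).

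Relative to 0 divisions, Wnt5a fell by 1.71 ± 0.19 in cells of 3 or more divisions (limma, adjusted p = 0.00315). After 2 divisions it fell by 0.98 ± 0.19 against the control (limma, adjusted p = 0.0268). That call was lost without control replicate 1 (0.113), control replicate 2 (0.0845) or replicate 1 of the cohort (0.151), and also with a floor of 16 (0.0617) and with only the 4 arrays compared (0.107). After 0 and 1 divisions the changes of -0.66 and -0.64 did not pass (limma, adjusted p = 0.218 and 0.172). Between 2 and 0 divisions, within the label set, the difference was -0.32 (95% interval -0.76 to 0.13). It did not pass (limma, adjusted p = 0.799, and 0.529 with the replicate block).

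Dkk3 and Dkk2 belong to the Dickkopf family of secreted proteins. Dkk2 binds the Lrp co-receptors, and Dkk3 is the divergent member of the family, whose effect on Wnt signals differs between cell types. Dkk3 read 11.27 and 11.23 in the control, 10.02 and 10.19 after 0 divisions, 9.79 and 10.23 after 1, 8.92 and 10.40 after 2, and 7.53 and 8.53 after 3 or more. Every cohort lay below the control, neighbours from 0 to 2 divisions overlapped, and the replicates parted most after 2 and after 3 or more divisions. It fell by 3.22 ± 0.48 (SE) between 3 or more divisions and control, 9.32-fold lower (limma, adjusted p = 0.00212), and both of its probe sets passed, at -3.22 and -3.27.

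In cells of 3 or more divisions Dkk3 fell by 2.08 ± 0.48 relative to those of 0 (limma, adjusted p = 0.0276), a call lost without each array of these groups in turn (0.0683 to 0.128) and with a floor of 16 (0.0748). After 2 divisions the change against control was -1.59 (limma, adjusted p = 0.0992) and passed with the replicate block (adjusted p = 0.0138). It also passed when array 2 of that cohort was left out (-2.33, adjusted p = 0.0353).

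Dkk2 read 11.31 and 8.91 in the control, 9.51 and 7.0 after 0 divisions, 9.17 and 7.43 after 1, 8.51 and 8.0 after 2, and 6.80 and 5.88 after 3 or more. Replicate 1 was above replicate 2 in every group, by 0.51 to 2.51, and the cohort of 3 or more divisions lay below the control and below all other cohorts. The change between 3 or more divisions and control was -3.77 ± 1.02 (SE), 13.6-fold lower (limma, adjusted p = 0.0278). This call was lost without control replicate 1 (-2.57, adjusted p = 0.149), without replicate 1 of the cohort (0.068), without replicate 2 of the cohort (0.157) and with a floor of 16 (0.0798). With the replicate block Dkk2 passed against the control also after 1 division (-1.81, adjusted p = 0.0499) and after 2 (-1.85, adjusted p = 0.0269), and in 3 or more against 0 divisions (-1.91, adjusted p = 0.0152). Without the block these had limma adjusted p of 0.481, 0.356 and 0.272.

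**Figure D2:**
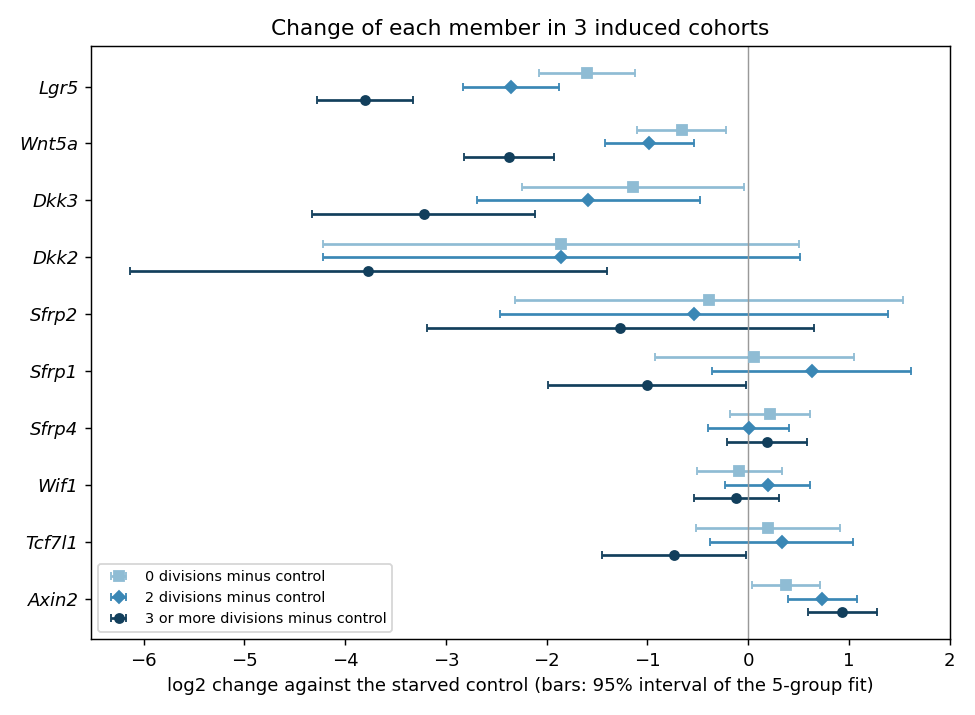
Log2 change of each member against the starved control (horizontal axis) after 0 divisions (squares), 2 divisions (diamonds) and 3 or more divisions (circles), with bars for the 95% interval of the fit to all 5 groups. The intervals of Lgr5 lie below 0 in the 3 cohorts shown, and those of Dkk2 and Sfrp2 are the widest.

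The Sfrp proteins carry a domain like the ligand-binding part of Frizzled and hold Wnt proteins outside the cell. Sfrp2 read 13.21 and 11.04 in the control, 12.36 and 11.12 after 0 divisions, 12.64 and 11.06 after 1, 11.96 and 11.22 after 2, and 11.45 and 10.27 after 3 or more. Replicate 1 was above replicate 2 in every group, by 0.74 to 2.17, and each cohort overlapped the control. The change of -1.27 ± 0.83 (SE) between 3 or more divisions and control did not pass without the block (limma, adjusted p = 0.317) and passed with it (adjusted p = 0.00747). Without control replicate 1 the change was -0.18 (limma, adjusted p = 0.915), without control replicate 2 it was -2.35 (0.0845), and without replicate 2 of the most divided cells -0.68 (0.737).

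Sfrp1 read 8.64 and 9.80 in the control, 9.28 and 9.28 after 0 divisions, 9.44 and 9.58 after 1, 9.28 and 10.42 after 2, and 8.20 and 8.24 after 3 or more. The cohort of 3 or more divisions was below every other group, and the remaining cohorts overlapped the control. Its change was -1.0 ± 0.43 (SE) between 3 or more divisions and control (limma, adjusted p = 0.125) and -1.07 ± 0.43 relative to 0 divisions (limma, adjusted p = 0.147). With the block the adjusted p was 0.0346 and 0.0381, so each then passed. Without control replicate 1 the change against control was -1.59 and passed too (adjusted p = 0.0339). In all 5 probe sets of Sfrp1 the arrays of 3 or more divisions lay below those of the control, with changes of -1.07 to -0.52, and 0 of them passed over all probe sets (limma, adjusted p = 0.0521 to 0.307), against 4 with the block.

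Sfrp4 and Wif1, the Wnt inhibitory factor, showed no change that passed in any of the 6 comparisons, with or without the block. Sfrp4 ran from 5.60 to 6.09 over the arrays, and its change between 3 or more divisions and control was 0.19 (95% interval -0.21 to 0.59). Wif1 ran from 3.11 to 3.75, on each array below the floor of 16 in linear intensity that served as an alternative, and the corresponding change was -0.12 (95% interval -0.54 to 0.30). Differences of so dim a probe set can be compressed, so these values do not show that Wif1 is unchanged.

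Tcf7l1, also called Tcf3, is a DNA-binding factor of the TCF family that mostly represses targets of the pathway and limits the pluripotency network in embryonic stem cells. It read 9.98 and 9.35 in the control, 10.04 and 9.67 after 0 divisions, 10.24 and 9.51 after 1, 10.10 and 9.88 after 2, and 9.16 and 8.69 after 3 or more. The cohort of 3 or more divisions lay below every other group, and the rest overlapped each other. The change was -0.74 ± 0.31 (SE) between 3 or more divisions and control (limma, adjusted p = 0.121) and -0.93 ± 0.31 relative to 0 divisions (limma, adjusted p = 0.0875). Each passed once the replicate number was a block (0.00362 and 0.00243). The other probe set of Tcf7l1 changed by -0.33 and did not pass in either fit (limma, adjusted p over all probe sets = 0.379, and 0.247 with the block).

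Axin2, a scaffold of the beta-catenin destruction complex that is itself switched on by canonical Wnt signals, was the member that rose. Its main probe set (1436845_at) read 5.02 and 4.75 in the control, 5.37 and 5.15 after 0 divisions, 5.56 and 5.68 after 1, 5.56 and 5.68 after 2, and 5.94 and 5.7 after 3 or more. Every cohort lay above the control, and the cohorts of 1 and 2 divisions overlapped, while that of 3 or more lay above both by a narrow margin. Between 3 or more divisions and control it rose by 0.93 ± 0.15 (SE), 1.91-fold (limma, adjusted p = 0.00269), a call that held without each array of these groups in turn.

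After 2 divisions Axin2 rose by 0.74 ± 0.15 against the control (limma, adjusted p = 0.0288), and in 3 or more against 0 divisions by 0.56 ± 0.15 (limma, adjusted p = 0.0423). Each of these calls was lost without each array of its own groups in turn (0.0502 to 0.131, and 0.104 to 0.194). The call after 2 divisions was also lost with only the 4 arrays compared (0.11) and with the mean of both probe sets (0.251), and the call against 0 divisions in 6 settings that kept all arrays of the comparison (0.0531 to 0.09). After 1 division the change of 0.73 had a limma adjusted p of 0.0691 and passed with the block (adjusted p = 0.0211). The second probe set (1421341_at) read between 2.98 and 3.41, and its change between 3 or more divisions and control was -0.29, of the opposite sign (limma, adjusted p over all probe sets = 0.183). Averaged over both probe sets, the change of Axin2 was 0.32 (limma, adjusted p = 0.0558).

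**Figure D3:**
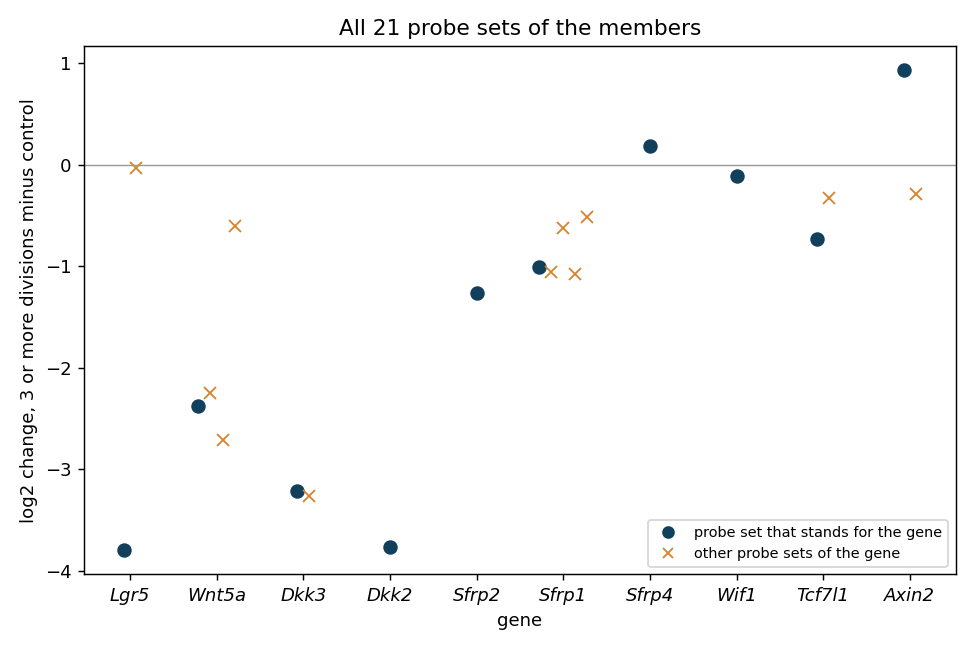
Log2 change between 3 or more divisions and control (vertical axis) for all 21 probe sets, by gene, with circles for the probe set that stands for its gene and crosses for the others. The probe sets of Wnt5a, Dkk3, Sfrp1 and Tcf7l1 lie on the same side of 0 within each gene, those of Axin2 lie on opposite sides, and the second of Lgr5 lies at -0.03.

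The start regions of Axin2, which rose, and of Dkk2 and Sfrp2, the antagonists with the widest spread between replicates, are shown so that a member that rose can be set beside 2 antagonists that were lower on average. RefSeq's promoter table (GRCm38.p6) held 5 of the 10 members, Axin2, Sfrp2, Dkk2, Wif1 and Tcf7l1, with 250 bases before and 50 after the start. The letters of the TCF and LEF motif were searched as CTTTGAT or CTTTGTT, and also as CTTTGAA or CTTTGTA, on both strands. They are in 0 of the 5 windows and in 16.9% of the 32851 windows of the table. The TATA box, searched as TATAAA on the strand of the gene after the sequences were seen, is in that of Dkk2, from 32 bases before the start, and in 8.32% of all windows. Capitals mark it. Axin2 (chr11:108920099-108920398, + strand) holds 31 CpG dinucleotides, Dkk2 (chr3:132085042-132085341, + strand) 11 and Sfrp2 (chr3:83766071-83766370, + strand) 22.
Axin2: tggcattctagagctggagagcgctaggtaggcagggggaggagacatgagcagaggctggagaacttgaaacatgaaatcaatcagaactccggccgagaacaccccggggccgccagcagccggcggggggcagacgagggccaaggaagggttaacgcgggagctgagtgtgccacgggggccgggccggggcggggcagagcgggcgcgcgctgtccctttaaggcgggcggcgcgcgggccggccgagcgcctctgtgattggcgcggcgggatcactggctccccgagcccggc
Dkk2: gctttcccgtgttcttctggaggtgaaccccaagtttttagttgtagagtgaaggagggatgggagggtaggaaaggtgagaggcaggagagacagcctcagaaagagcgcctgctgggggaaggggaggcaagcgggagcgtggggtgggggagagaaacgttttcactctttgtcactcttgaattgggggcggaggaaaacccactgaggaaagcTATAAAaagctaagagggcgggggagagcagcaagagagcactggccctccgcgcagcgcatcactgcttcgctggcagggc
Sfrp2: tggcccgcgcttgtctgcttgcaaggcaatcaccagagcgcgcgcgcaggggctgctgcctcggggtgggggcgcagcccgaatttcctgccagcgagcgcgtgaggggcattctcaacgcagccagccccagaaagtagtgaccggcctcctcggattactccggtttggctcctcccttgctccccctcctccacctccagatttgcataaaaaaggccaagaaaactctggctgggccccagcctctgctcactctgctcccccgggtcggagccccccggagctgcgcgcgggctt

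Replicate 1 was above replicate 2 in 5 of 5 groups for Dkk2, Sfrp2 and Tcf7l1. This count of 3 in 10 members is near the share over all genes, of which 24.5% had the same sign in 5 of 5 groups. For Lgr5 the difference ran from -0.20 to 0.59 and for Wnt5a from -0.49 to 0.28, with both signs. Of the 10 fibroblast markers, 3 were higher in replicate 1 of every group, Col3a1, Pdgfra and Lum, 1 was lower in every group, Col1a2, and 6 had both signs. What the replicate numbers stand for is not given in the labels.

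**Figure D4:**
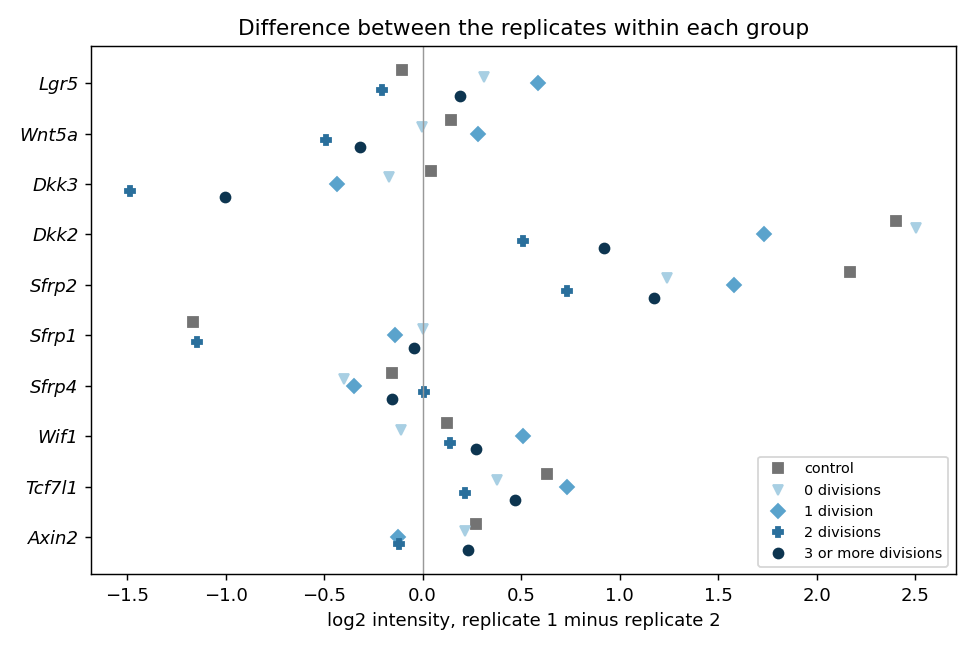
Log2 intensity of replicate 1 minus replicate 2 (horizontal axis) for each member, with 1 symbol for each of the 5 groups. Dkk2, Sfrp2 and Tcf7l1 lie right of 0 in 5 of 5 groups, and Dkk2 reaches 2.51 after 0 divisions.

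Set against each other, the comparisons differed in how many members passed. Against the control 1 of 10 passed after 0 divisions, where 0.297% of all genes did, and 1 with the replicate block, where 3.25% did. After 1 division 1 passed, where 1.24% of all genes did, and 3 with the block, where 7.02% did. After 2 divisions 3 passed, where 6.12% of all genes did, and 5 with the block, where 15.5% did. In cells of 3 or more divisions 5 passed, where 27.6% of all genes did. With the block 8 passed there, 1 higher and 7 lower. Of all genes 37.8% then passed, 20.4% higher and 17.3% lower. These comparisons share the control arrays. Between 3 or more and 0 divisions 4 of 10 passed, 1 higher and 3 lower, where 13.9% of all genes did, 8.46% higher and 5.44% lower, and 7 of 10 with the block, where 25.6% did. Between 2 and 0 divisions limma passed 0 of 10 members and 0.055% of all genes. An unadjusted p under 0.05 was reached there by 2 members, Lgr5 and Axin2, and by 1412 of the 18193 genes. With the block 0 members passed, where 1.13% of all genes did.

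By a fixed rule, the genes most like a member were those with the highest Pearson r over the 5 group means, among genes whose means spanned at least 1 on the log2 scale. For Lgr5 these were Pigk (r = 0.99985), Cnksr3, Adam19, Col27a1, a fibrillar collagen gene, and Prickle1, a gene of planar cell polarity (r = 0.997). With 5 points such values are common, and 52 of 2928 genes reached 0.99 or more. For Axin2 they were Cpped1, Fxyd5, Fosl1, Ces2g and Crip2, and 10 of 2929 genes reached 0.99. For Sfrp2 they were Hspa13, Tcta, Tmem126b, Rab9 and Caps2. The points share arrays and normalization, and no test was made.

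Of 85 listed pathway genes outside the 10 members, 83 were measured, and in cells of 3 or more divisions 10 rose and 19 fell against the control, 34.9% in all, against 27.6% of all genes (14 and 28 with the block, where 37.8% of all genes passed). By direction 15.9% of all genes rose and 11.7% fell (20.4% and 17.3% with the block). The median change of the 83 pathway genes was -0.01. Of these 29 calls 16 held without each array of the compared groups in turn. The list came from textbook knowledge with earlier results of these data known.

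Among the R-spondin branch, Lgr6, the close relative of Lgr5 and a receptor of the same ligands, rose while Lgr5 fell. Lgr6 read 3.92 and 4.15 in the control, 4.74 and 5.65 after 0 divisions, 6.54 and 7.71 after 1, 8.89 and 7.60 after 2, and 9.71 and 9.37 after 3 or more. Each cohort lay above the control, and only those of 1 and 2 divisions overlapped among neighbours. It rose by 5.5 ± 0.52 (SE) between 3 or more divisions and control, 45.4-fold (limma, adjusted p = 0.000414), and since the control reads are dim this fold is not exact. Lgr6 has 2 probe sets, and the reads and fold given here are those of the one with the higher mean. Lgr6 also rose after 1 division, by 3.09 (limma, adjusted p = 0.0427), a call lost without each array in turn. That call was also lost with a floor of 16 (0.11) and with only the 4 arrays compared (0.247). Averaged over both probe sets, the rise after 1 division was 1.91 and did not pass (limma, adjusted p = 0.0885). After 2 divisions Lgr6 rose by 4.21 (limma, adjusted p = 0.00649), a call lost without replicate 1 of that cohort, where the rise was 3.56. In cells of 3 or more divisions it rose by 4.35 relative to 0 divisions (limma, adjusted p = 0.00358). Between 2 and 0 divisions, within the label set, Lgr6 was 3.05 higher (limma, adjusted p = 0.157), and it passed with the block (adjusted p = 0.0365). Of the 6 epithelial markers, Krt14, Krt8 and Cdh1 also rose between 3 or more divisions and control. Krt14 read 10.55 and 10.48 after 3 or more divisions, against 4.26 and 4.70 in the control. Epcam (0.11), Krt5 (-0.02) and Krt18 (0.33) did not pass in that comparison. The part of these markers in the rise of Lgr6 was not tested.

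Lgr4, the most widely expressed receptor of this family, rose by 0.84 ± 0.14 between 3 or more divisions and control (limma, adjusted p = 0.00378). The ligands of these receptors went the other way. Rspo3 read 9.23 and 8.58 after 3 or more divisions, against 12.16 and 11.30 in the control, and fell by 2.82 ± 0.47 (limma, adjusted p = 0.00352). Rspo2 fell by 2.17 ± 0.34 (limma, adjusted p = 0.00251) and Rspo1 by 2.03 ± 0.36 (limma, adjusted p = 0.00463). For each of the 3 the arrays of the cohort lay below those of the control, as they did for 28.6% of all genes. Rspo4 stayed between 3.47 and 3.97 and did not pass, and reads this dim do not show that it is unchanged. Znrf3, the ligase that removes Frizzled receptors and that R-spondins hold back, rose by 0.64 ± 0.16 (limma, adjusted p = 0.0187), a call lost without either control array (0.076 and 0.0661), without replicate 2 of the cohort (0.121) and with only the 4 arrays compared (0.0611).

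**Figure D5:**
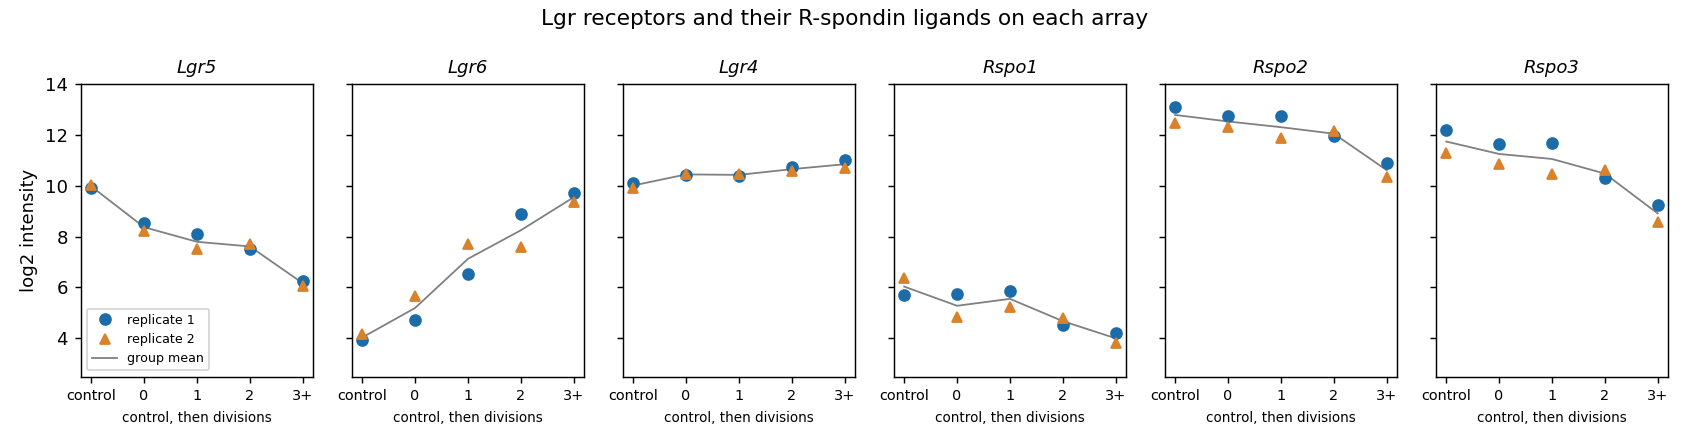
Log2 intensity (vertical axis) of the receptors Lgr5, Lgr6 and Lgr4 and of the ligands Rspo1, Rspo2 and Rspo3 on each array, with circles for replicate 1, triangles for replicate 2 and a line through the group means, for the control and then 0, 1, 2 and 3 or more divisions. Lgr5 and the 3 ligands are at their lowest after 3 or more divisions, where Lgr6 and Lgr4 are at their highest.

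Of 15 receptors of Wnt ligands, 9 fell and 0 rose in cells of 3 or more divisions against the control (10 and 2 with the block). Over all genes 11.7% fell and 15.9% rose in this comparison (17.3% and 20.4% with the block). Fzd4 changed most among them, read 8.17 and 6.93 after 3 or more divisions, against 10.96 and 9.98 in the control, and fell by 2.92 ± 0.60 (limma, adjusted p = 0.00885). That call was lost without control replicate 1 (0.0563) and without replicate 2 of the cohort (0.0719). Fzd5 fell by 2.49, Fzd8 by 2.34, Ror1, a receptor of Wnt5a, by 1.64, the co-receptor gene Lrp6 by 1.52, Fzd2 by 1.51, Fzd7 by 0.88 and Ryk by 0.74, and these 7 calls held without each array in turn. Fzd1 fell by 1.81 (limma, adjusted p = 0.0482), lost without control replicate 1 (0.243), without either array of the cohort (0.0832 and 0.239) and in 4 other settings (0.0503 to 0.114). After 2 divisions 5 of the 15 receptors had fallen against the control, among them Fzd8 by 1.19, Lrp6 by 1.01 and Fzd2 by 0.76. After 1 division Ryk had, by 0.62. Each of these calls was lost without at least 1 array. Of all 18193 genes 374 fell after 2 divisions and 55 after 1 division.

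Of the other genes listed as antagonists 3 of 10 rose and 1 fell in cells of 3 or more divisions against the control, where 15.9% of all genes rose and 11.7% fell. Sostdc1, an antagonist of Wnt and BMP signals, read 7.43 and 7.57 in those cells, against 3.98 and 4.14 in the control, and rose by 3.44 ± 0.33 (limma, adjusted p = 0.000447). Apcdd1, a membrane-bound inhibitor, rose by 1.08 and Dkkl1 by 0.67, while Sfrp5 fell by 0.73, and the calls of Dkkl1 and Sfrp5 were each lost without at least 1 array. Dkk1, the best known of the Dickkopf proteins, read 3.45 to 3.89 on all arrays and did not pass in any comparison. Reads this dim do not show that Dkk1 is unchanged.

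Of 7 target genes 2 rose and 3 fell in the same comparison, where 15.9% of all genes rose and 11.7% fell. Cd44, an adhesion molecule, rose by 2.46 ± 0.36 (limma, adjusted p = 0.0021) and Ccnd1, a cyclin of the G1 phase, by 1.04 ± 0.13 (limma, adjusted p = 0.00105). Ccn4, a matricellular target also called Wisp1, fell by 2.5 ± 0.78 (limma, adjusted p = 0.0485), a call lost without control replicate 2 (0.218), without either array of the cohort (0.194 and 0.119) and in 4 other settings (0.0518 to 0.117). Bambi fell by 1.21 and Ccn2 by 1.69, each lost without at least 1 array. Among 18 ligands Wnt4 rose by 1.06, and Wnt2 fell by 1.65 and Wnt11 by 0.61, each a call lost without at least 1 array. Of 17 intracellular genes Dvl1 rose by 0.40 and Nkd1 fell by 2.40, with the same loss, and 0 of 6 nuclear factors and 0 of 2 genes of ligand release passed. Sp5, a target gene with a close link to beta-catenin, stayed between 4.17 and 4.56 and did not pass, and reads this dim do not show that it is unchanged. Of 3 markers of dividing cells Mki67 and Top2a rose, and the summed intensity of the 3 was 6401 and 6638 after 3 or more divisions, against 4479 and 2792 in the control. It was 6271 and 5019 already in the cells labelled with 0 divisions, and the part of these markers in the changes was not tested.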

How the data were processed

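The authors deposited 1 table of linear intensity for 45101 probe sets on 10 arrays. Per the submitters' processing notes, RMA was used for 4 arrays. The tool for the other 6, the RMA version and any joint normalization are not given in the sources used here. Values ran from 5.7 to 26572, with 0 below 1.

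From these, log2 values were quantile normalized over the 10 arrays. Of the probe sets 34945 had 1 gene in the platform's table, 932 had several and 9224 were unnamed here. By gene ID 34741 matched RefSeq's gene table. The probe set with the highest mean stood for its gene. A linear model of the 5 groups was fitted with lmFit and eBayes (limma 3.58.1, R 4.3.3, 5 residual degrees of freedom, two-sided) over 18193 genes, and calls needed a Benjamini-Hochberg adjusted p under 0.05. The method was tried on simulated data whose noise was independent between arrays, so that trial does not cover the correlation of same-numbered arrays given below. The members, lists and tests were chosen with earlier results of these data known.

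Replicate numbers were taken to pair the arrays, from the data alone: deviations of same-numbered arrays correlated in 10 of 10 pairs of groups (r = 0.477 to 0.872). Named genes were the 10 members, the 3 largest called rises and falls of the pathway list in a comparison, and the genes most like Lgr5, Sfrp2 and Axin2. Other pathway genes and markers were named after their values were seen. Alternatives were the normalization, a floor of 16, a filter at a mean log2 of 5, the choice of probe set, the block, the arrays fitted, an intensity trend and leaving out each array. The table names no genome build, so coordinates are RefSeq's.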

Additional observations from a re-analysis of the deposited data

How the results depend on the processing

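With 2 arrays a group, a fit without 1 of them takes the lone array to vary like the other groups. In settings other than leaving out an array, the 14 called changes of members gave 126 values, of which 110 kept direction and call and 16 lost the call, and in 56 leave-one-out values 24 lost it. The 46 changes not called gave 402 values, of which 11 passed and 2 changed sign: Sfrp4 after 2 divisions against control (-0.00138 without the quantile step) and Wif1 in 3 or more against 0 divisions (0.0606 with arrays centred on the median). Wif1 gave no value with a floor of 16, since all its arrays lie below it. Dim signal limits Wif1, the second probe sets of Lgr5 and Axin2, and dim genes of the pathway list such as Dkk1 and Rspo4.

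The replicate block moved the members called to 8 in 3 or more divisions against control, 3 after 1 division, 5 after 2 divisions and 7 in 3 or more against 0 divisions. All genes called with the block were 591 after 0 divisions (54 without), 1277 after 1 (226), 2827 after 2 (1114), 205 in 2 against 0 (10) and 4652 in 3 or more against 0 (2529). With a floor of 16 members called were 0 after 0 divisions and 2 in 3 or more against 0, and all genes called were 25 after 0 divisions, 144 after 1 and 1 in 2 against 0. With only the 4 arrays compared, members called were 0 after 0 and 1 divisions and 1 after 2, and all genes called were 0, 0 and 86, and 0 in 2 against 0. After 0 divisions all genes called were 35 with arrays centred on the median and 28 with every probe set tested. The cause of these shifts was not tested.

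Leaving out 1 array in turn gave 4 to 5 members and 2701 to 4025 genes called in 3 or more divisions against control, 0 members and 4 to 32 genes after 0 divisions, 0 to 1 and 4 to 77 after 1, and 1 to 3 and 97 to 573 after 2. In 2 against 0 divisions it gave 0 members and 0 to 13 genes, and in 3 or more against 0 divisions 2 members and 391 to 1480 genes. Of the changes not called, 2 passed in such a fit, Sfrp1 in 3 or more divisions against control (-1.59 without control replicate 1, adjusted p = 0.0339) and Dkk3 after 2 divisions against control (-2.33 without replicate 2 of the cohort, adjusted p = 0.0353). Changes that were not called and turned sign in at least 1 such fit had these ranges. In 3 or more divisions against control these were Wif1 (-0.25 to 0.0200). In 0 divisions against control these were Sfrp1 (-0.52 to 0.64), Sfrp2 (-1.48 to 0.69) and Tcf7l1 (-0.12 to 0.51). In 1 division against control these were Sfrp1 (-0.29 to 0.87), Sfrp2 (-1.37 to 0.80), Tcf7l1 (-0.15 to 0.58), Wif1 (-0.13 to 0.39) and Sfrp4 (-0.0428 to 0.31). In 2 divisions against control these were Sfrp2 (-1.62 to 0.55) and Sfrp4 (-0.0727 to 0.0805). In 2 against 0 divisions these were Sfrp2 (-0.77 to 0.47), Dkk2 (-1.25 to 1.26), Tcf7l1 (-0.0528 to 0.32), Dkk3 (-1.19 to 0.30) and Sfrp1 (-0.00596 to 1.14). In 3 or more against 0 divisions these were Sfrp4 (-0.22 to 0.17) and Wif1 (-0.16 to 0.11).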

Other observations

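Frzb, a secreted antagonist related to the Sfrp genes and picked because of its course, stood at 5.68 and 5.98 in the control, 6.15 and 6.08 after 0 divisions, 7.11 and 6.57 after 1, 7.28 and 7.06 after 2, and 5.83 and 4.72 after 3 or more. It was highest after 2 divisions, where it was 1.34 above the control (limma, adjusted p = 0.0614, and 0.0152 with the replicate block). Notum, an enzyme that inactivates Wnt ligands, read 5.67 and 4.68 after 3 or more divisions, against 4.25 and 3.86 after 0 divisions, and rose by 1.12 (limma, adjusted p = 0.0463). That call was lost without replicate 1 of the more divided cells (0.138), without either array of 0 divisions (0.113 and 0.196) and in 4 other settings (0.0535 to 0.11).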
